A study of Mus musculus with 2 samples.

Results

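A set of 6 microRNAs (miRNAs, short RNAs that pair with messenger RNAs and lower their output) that laboratories commonly use as internal references were followed in exosomes, the small vesicles that cells release. The members were mmu-miR-191-5p, mmu-miR-425-5p, mmu-miR-423-5p, mmu-miR-423-3p, mmu-miR-186-5p and mmu-miR-361-5p, chosen by name, and they were 6 of the 1881 mouse miRNAs on the array. The exosomes came from the medium of purchased bone marrow-derived mesenchymal stem cells (BMSCs) of C57BL/6 mice, kept for 72 h either in normoxia, at an oxygen level that the labels do not give, or at 0.2% oxygen. Each condition was a single sample on 1 Agilent mouse miRNA array with 1 colour, Cy3. No spread between cultures could be computed and no difference was tested. Each of the 6 was read by 2 or 4 probes, printed at 30 spots in all, and the SDs and SEs given here were computed over the spots of an array. They cover the error within an array and leave out the spread between cultures and between labellings.

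A reference miRNA is measured alongside the miRNA of interest, and the amount of the second is given relative to the first. It serves that purpose when it is bright enough to be measured and when its own amount does not differ between the conditions. Exosomes have no universally accepted internal reference. The small nuclear RNA U6, in common use for cells, is largely nuclear. In the quantitative PCR of the study, U6 served for cells and a spiked-in worm miRNA for exosomes, so none of the 6 miRNAs was a reference there.

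The mature sequences, from RefSeq with the GRCm38.p6 assembly, are shown because the array probes and any PCR assay of these references must tell them from other miRNAs. They are written 5′ to 3′ with the seed, bases 2 to 8, through which a miRNA chooses its targets, in capitals.
miR-191-5p: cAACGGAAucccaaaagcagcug
miR-425-5p: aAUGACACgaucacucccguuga
miR-423-5p: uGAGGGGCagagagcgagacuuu
miR-423-3p: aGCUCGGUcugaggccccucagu
miR-186-5p: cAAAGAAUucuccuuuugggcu
miR-361-5p: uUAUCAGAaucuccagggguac

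The 6 seeds were all different. Of the 1608 miRNAs on the array with a sequence in that table, 1 other shared the seed of miR-425-5p (miR-489-3p) and 1 other shared that of miR-423-5p (miR-6921-5p), and neither was detected on either array. Shared seeds bear on targets, and cross-reaction of the probes was not tested. Over the whole sequence, the nearest other miRNA lay 7 single-base edits from miR-423-5p (miR-1902) and 8 from each other member. The GC content ran from 40.9% in miR-186-5p to 65.2% in miR-423-3p. miR-191 and miR-425 lie in the same gene, Dalrd3, on chromosome 9 and are processed from neighbouring hairpins. miR-186 lies in Zranb2 on chromosome 3, and miR-361 lies in Chm on chromosome X. miR-423-5p and miR-423-3p are the 2 arms of a single hairpin in Nsrp1 on chromosome 11. That hairpin is printed with both arms in capitals to show that they come from the same precursor.
Mir423 hairpin: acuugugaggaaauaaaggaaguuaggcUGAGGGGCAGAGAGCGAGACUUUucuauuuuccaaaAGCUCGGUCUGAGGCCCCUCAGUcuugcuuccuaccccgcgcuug

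Of the 6 references, 3 were not measurable in these exosomes. miR-191-5p, miR-423-3p and miR-186-5p had 0 spots that the scanner software called well above background on either array. That made 3 of 6 members detected on neither array, beside 87.0% of all 1881 miRNAs on the array, so the share of undetected members was below that of the array as a whole. A probe passed as detected when the software placed over 50% of its kept spots well above background. The dimmest detected probe had a mean signal of 14.5 intensity units in normoxia and 13.5 in hypoxia.

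miR-191-5p, among the references most often proposed for cells and serum, was read by 4 probes. Its spots averaged -2.51 ± 3.03 intensity units in normoxia (SD, n = 28 spots) and -2.99 ± 3.17 in hypoxia (SD, n = 30 spots), and its brightest spots reached 6.71 and 2.82. A value below 0 is a spot dimmer than the background that the software subtracted. The negative control spots of the array averaged 4.28 ± 3.10 in normoxia (SD, n = 964 spots) and 4.28 ± 3.52 in hypoxia (SD, n = 979 spots). The spots of miR-191-5p lay, on average, below these controls on both arrays. That was not particular to miR-191-5p: the median over all undetected miRNA probes was -0.27 in normoxia and -0.97 in hypoxia.

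miR-423-3p, the arm opposite miR-423-5p, averaged -1.58 ± 3.32 in normoxia (SD, n = 29 spots) and -2.16 ± 2.66 in hypoxia (SD, n = 28 spots) over its 4 probes. miR-186-5p averaged 3.36 ± 3.63 in normoxia (SD, n = 28 spots) and 2.75 ± 3.60 in hypoxia (SD, n = 29 spots) over its 2 probes, with brightest spots of 10.5 and 10.3. None of the 3 reached the dimmest detected probe with a single spot. No fold change is given for these 3 miRNAs, because a ratio of values at background has no meaning. The arrays show that they were not detectable at this signal, not that they were absent from the exosomes. The 4 remaining arms of the hairpins, miR-191-3p, miR-425-3p, miR-186-3p and miR-361-3p, also had 0 spots well above background on either array.

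**Figure D1:**
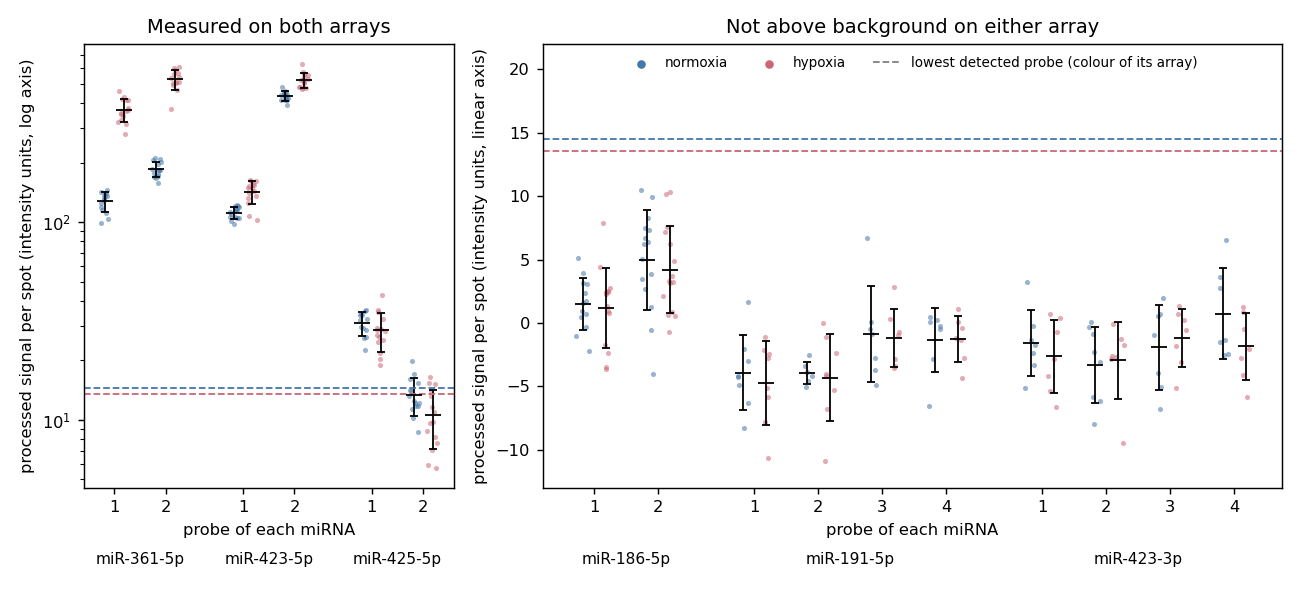
Processed signal of every spot kept, in intensity units, for each probe of the 6 reference miRNAs on the normoxia array (blue) and the hypoxia array (red). Black bars are means with SD over spots, the left axis is logarithmic and the right axis linear, and the dashed lines mark the dimmest detected probe of each array. The spots of miR-361-5p do not overlap between the arrays, probe 1 of miR-425-5p overlaps broadly, probe 2 of miR-425-5p is not detected, and all spots of the 3 miRNAs on the right lie below both dashed lines.

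The other 3 references were measured on both arrays. miR-425-5p was dim and was carried by 1 probe, whose signal averaged 30.8 ± 4.17 intensity units in normoxia (SD, n = 13 spots) and 28.4 ± 6.30 in hypoxia (SD, n = 15 spots). Its spots ran from 22.6 to 36.2 in normoxia and from 19.0 to 42.9 in hypoxia, so the arrays overlapped over most of that range. The second probe of miR-425-5p averaged 13.4 ± 2.86 and 10.6 ± 3.53, with 3 of 15 and 1 of 15 spots well above background, and was not counted as detected.

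miR-423-5p was brighter. Its first probe rose from 112 ± 7.67 (SD, n = 15 spots) to 143 ± 18.8 (SD, n = 15 spots) and its second from 435 ± 23.4 (SD, n = 15 spots) to 523 ± 44.2 (SD, n = 15 spots), in intensity units before any normalization. The spots of the first ran from 97.5 to 122 in normoxia and from 103 to 163 in hypoxia, and those of the second from 390 to 483 and from 471 to 630. Of the hypoxia spots, 13 of 15 for the first probe and 10 of 15 for the second lay above every normoxia spot. Both probes moved the same way, with raw log2 differences of 0.35 and 0.27.

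miR-361-5p stood apart between the arrays. Its first probe averaged 127 ± 14.3 in normoxia (SD, n = 15 spots) and 370 ± 49.6 in hypoxia (SD, n = 15 spots). Its second averaged 185 ± 15.9 (SD, n = 15 spots) and 527 ± 62.3 (SD, n = 14 spots). Spots of the first ran from 98.9 to 145 and from 278 to 458, and those of the second from 159 to 210 and from 372 to 610 in normoxia and hypoxia, respectively. For both probes every hypoxia spot was brighter than every normoxia spot. Before normalization miR-361-5p was 2.87-fold higher on the hypoxia array. Such separation of raw spots was not particular to it. Among other references treated below, both probes of miR-320-3p separated upward, and both probes of let-7a-5p, let-7i-5p, miR-24-3p and miR-30e-5p downward. The share over all miRNAs was not counted, either for such full separation or for the partial separation of miR-423-5p.

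How far a reference appears to move depends on what the arrays are scaled to, so the differences were taken under 8 scalings. The main one was quantile normalization, which gives both arrays the same distribution of probe signals and is the normalization the study names. The others were no normalization, the 75th percentile of all miRNA probes, the 75th percentile or the median of the shared probes (those detected on both arrays), a lowess curve on signal level, and the means of the 2 hybridization and the 2 labelling spike-ins. Spike-ins are synthetic RNAs added in fixed amount, at labelling or at hybridization. A miRNA counts as 2-fold apart where its log2 difference, hypoxia minus normoxia, is 1 or more in size, the threshold of the study's text.

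Under quantile normalization miR-425-5p was 0.48 ± 0.099 higher in hypoxia on the log2 scale (SE over spots), or 1.40-fold. The lowest detected signal after this normalization was itself 0.43 higher in hypoxia, at 12.0 in normoxia and 16.1 in hypoxia. The dim probe of miR-425-5p differed by -0.12 before normalization, so its 0.48 was close to that shift of the floor. miR-423-5p was 0.70 ± 0.033 higher, or 1.63-fold, and its probes gave 0.82 and 0.58. miR-361-5p was 1.89 ± 0.043 higher, or 3.70-fold, and its probes gave 1.88 and 1.90. All 3 lay above the median of the 180 miRNAs detected on both arrays, which was 0.17. One of the 3 was 2-fold apart, beside 28.3% of the 180.

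The single factors per array moved all 3 together and left their distances unchanged. Without normalization miR-425-5p differed by -0.12, miR-423-5p by 0.31 and miR-361-5p by 1.52, with a median over the 180 miRNAs of -0.27. The 75th percentile of all miRNA probes is itself a background value, since 4028 of 4415 probes in normoxia and 4076 in hypoxia were not detected. Its factor is therefore a ratio of background values. Scaled to it, the 3 references differed by 0.81, 1.24 and 2.45, with a median of 0.66. These were the ends of the range. The hybridization spike-ins gave 0.0052, 0.43 and 1.65, and the labelling spike-ins gave 0.36, 0.78 and 2.00. The spike-ins themselves were not at one level: their raw log2 differences were -0.094 and -0.16 for the hybridization pair and -0.44 and -0.51 for the labelling pair.

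The 75th percentile of the shared probes gave 0.20, 0.63 and 1.84, their median gave 0.27, 0.70 and 1.91, and lowess gave 0.12, 0.62 and 1.81. Over all 8 scalings miR-425-5p was 2-fold apart in 0, miR-423-5p in 1 and miR-361-5p in 8. miR-425-5p was above 0 in 7 scalings and below 0 in 1, and its value under the hybridization spike-ins was smaller than its SE over spots.

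The number of the 3 past 2-fold was 1 under every scaling but the 75th percentile of all miRNA probes, where it was 2. The share of the 180 miRNAs past it was 31.1% with no normalization, 30.0% with the 75th percentile of the shared probes, 37.8% with that of all miRNA probes and 28.3% with the median of the shared probes. It was 30.6% with the hybridization spike-ins, 28.3% with the labelling spike-ins and 29.4% with lowess. With 3 measured members, 1 of 3 is close to these shares.

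**Figure D2:**
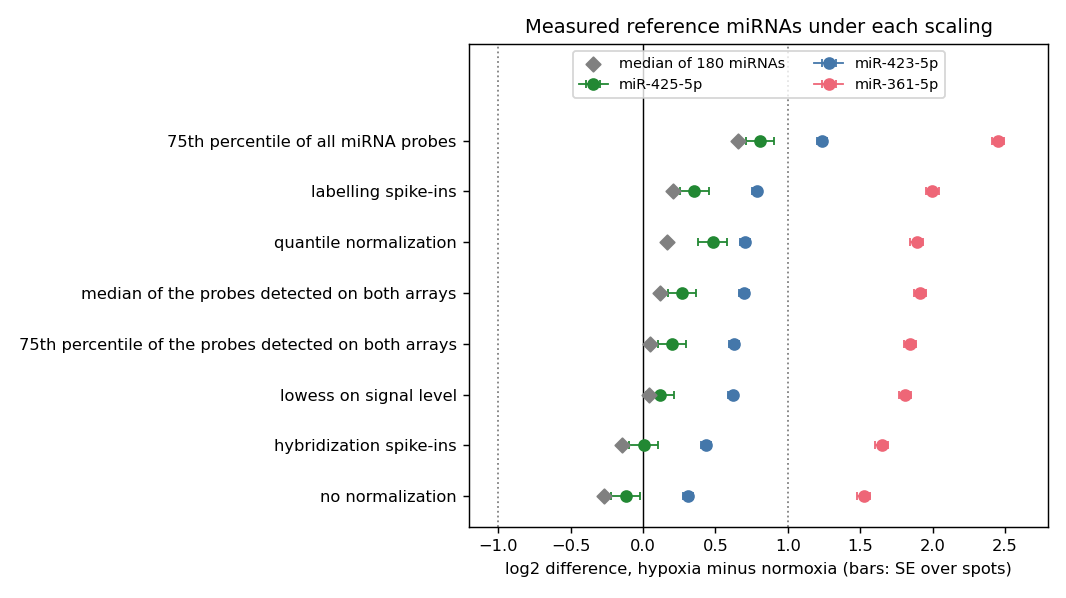
Log2 difference, hypoxia minus normoxia, of the 3 measured reference miRNAs (coloured points, bars are SE over spots) and the median of all 180 miRNAs measured on both arrays (grey diamonds) under each of 8 scalings. The dotted lines mark 2-fold, miR-425-5p stays between -0.12 and 0.81, miR-423-5p between 0.31 and 1.24, and miR-361-5p between 1.52 and 2.45, always in that order and above the diamond of its row.

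The distance between references does not depend on any scaling by a single factor per array, since such a factor cancels in it. Quantile normalization and lowess do change it. In the raw signals miR-425-5p lay 0.43 ± 0.10 below miR-423-5p on the log2 scale (SE over spots), a 1.35-fold disagreement. It lay 1.64 ± 0.11 below miR-361-5p, or 3.12-fold. miR-423-5p lay 1.21 ± 0.054 below miR-361-5p, or 2.32-fold. The log2 differences of the 3 references spanned 1.64 under every scaling by a single factor, 1.41 under quantile normalization and 1.69 under lowess.

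The distances that quantile normalization and lowess left were, for miR-425-5p against miR-423-5p, -0.22 and -0.50, and for miR-423-5p against miR-361-5p, -1.19 in both. miR-361-5p was 2-fold or more from each of the other 2 in all of them. The pairs that come from 1 hairpin (miR-423-5p and miR-423-3p) or from 1 gene (miR-425-5p and miR-191-5p) could not be compared, because 1 member of each was at background.

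Each miRNA measured on both arrays was ranked by its largest absolute log2 difference over the 8 scalings, where rank 1 is the smallest. This score is set by the 2 extreme scalings and is lowest for a miRNA midway between them. miR-425-5p came 53 of 180, with a largest difference of 0.81. miR-423-5p came 112, with 1.24, and miR-361-5p came 165, with 2.45. Other criteria gave other ranks: by distance from the median of the 180 under a single factor they were 26, 92 and 164, and by the size of the quantile-normalized difference 74, 104 and 164. The order of the 3 was the same by each. The median over the 180 was 1.04. Since the scalings by a single factor lie 0.93 apart on the log2 scale, no miRNA could score below 0.46. Of the 180, 86 stayed under 2-fold in every scaling, or 47.8%, and 1 of the 3 measured references, miR-425-5p, was among them.

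Signed differences placed the 3 above the middle of the 180 miRNAs, miR-425-5p only slightly. Under quantile normalization miR-425-5p held rank 114 of 180 from the lowest, miR-423-5p 134 and miR-361-5p 172. The raw differences gave ranks 104, 139 and 173. miR-425-5p lay 0.15 above the median of the 180 under any single factor, miR-423-5p 0.58 above it and miR-361-5p 1.79 above it. Under lowess miR-425-5p lay 0.077 above the median, less than its SE over spots of 0.099.

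The miRNAs whose quantile-normalized difference came closest to each reference were listed by the size of the gap, over the 2 arrays alone. For miR-425-5p they were miR-151-5p at 0.49 and miR-6981-5p at 0.46. For miR-423-5p they were miR-7028-5p at 0.71 and miR-21a-3p at 0.69, and for miR-361-5p they were miR-125a-3p and miR-188-5p, both at 1.88.

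Other miRNAs in use as references or proposed for it were taken from a list of 16, of which 11 were measured on both arrays. Their median quantile-normalized log2 difference was 0.015, beside 0.17 for all 180, and their raw median was -0.35, beside -0.27. miR-16-5p, a frequent reference in serum and plasma, differed by 0.015, with a range of -0.35 to 0.58 over the scalings. miR-24-3p, another reference proposed for serum, was bright, with probe means of 3433 and 3934 intensity units in normoxia and 2347 and 2760 in hypoxia, and differed by -0.24. By the largest difference over the scalings miR-24-3p ranked 5 of 180 and miR-16-5p 16, beside 53 for miR-425-5p. By distance from the median of the 180, miR-16-5p ranked 15, miR-425-5p 26 and miR-24-3p 41, so that the order of miR-425-5p and miR-24-3p depended on the criterion.

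The let-7 family members let-7i-5p and let-7a-5p differed by -0.20 and -0.42, miR-92a-3p by -0.32, miR-25-3p by 0.16, miR-93-5p by 0.58, miR-26a-5p by 0.61 and miR-30e-5p by -0.80. The other two were 2-fold apart: miR-320-3p by 2.29 and miR-152-3p by 1.00. Without normalization, miR-320-3p and miR-30e-5p were 2-fold apart, with raw log2 differences of 1.96 and -1.33. The 0.61 of miR-26a-5p rested on 1 dim probe, at 21.0 intensity units in normoxia and 20.3 in hypoxia. Its raw difference was -0.050, beside the shift of the floor of 0.43 under quantile normalization. Of the 11, 7 stayed under 2-fold in all 8 scalings, beside 86 of the 180 (47.8%), and 7 changed sign between them, beside 74 of the 180.

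No log2 difference was computed for the remaining 5 of the 16. miR-103-3p and miR-126a-3p were detected in normoxia alone, and both were near the limit there, with brightest probe means of 20.1 and 20.9. In hypoxia that probe of miR-103-3p averaged 15.1, with 7 of 15 spots well above background. That of miR-126a-3p averaged 2.03, with 0 of 14 spots well above background. All 14 lay below every normoxia spot of the probe. miR-30c-5p, miR-484 and miR-124-3p were detected on neither array.

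The 5 miRNAs with the smallest largest difference over the scalings were miR-9-3p (0.48), miR-3473g (0.49), miR-324-5p (0.52), miR-15b-5p (0.53) and miR-24-3p (0.53). They were picked from these same values, so the order describes these 2 arrays and no more. By distance from the median of the 180 they ranked 33, 35, 23, 21 and 41. Their levels differ widely: the probes of miR-9-3p averaged 813 and 524 intensity units in normoxia and 611 and 359 in hypoxia, while the detected probe of miR-324-5p averaged 22.6 and 17.0.

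**Figure D3:**
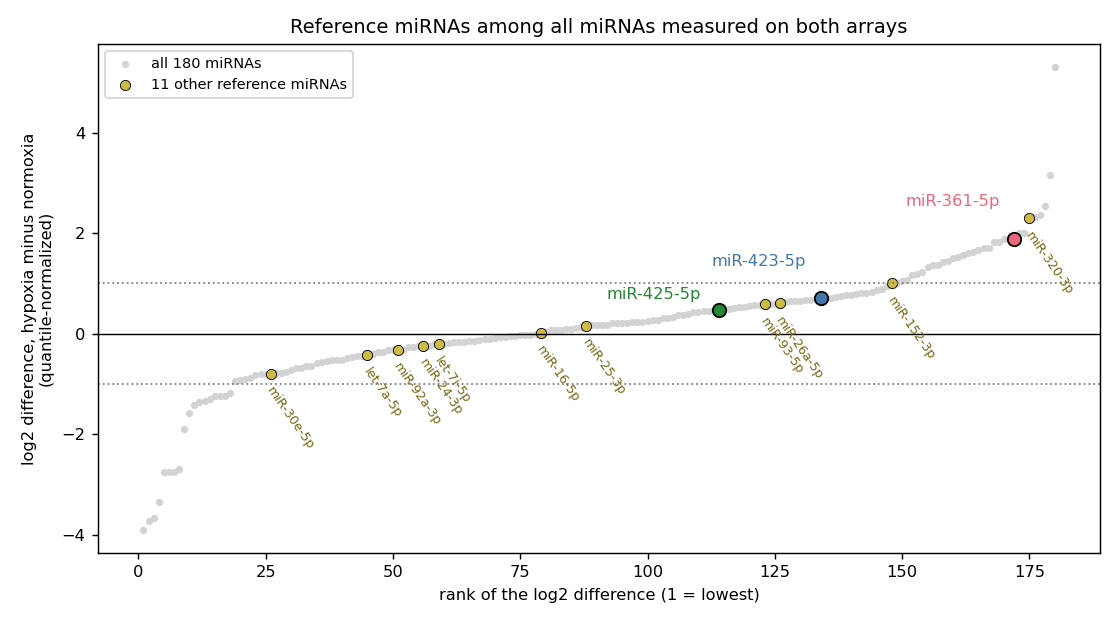
Quantile-normalized log2 difference, hypoxia minus normoxia, of all 180 miRNAs measured on both arrays, ordered from lowest to highest (grey), with the 3 measured reference miRNAs (large coloured points) and 11 other reference miRNAs (yellow). The dotted lines mark 2-fold, and miR-425-5p, miR-423-5p and miR-361-5p sit at ranks 114, 134 and 172, and 7 of the 11 yellow points, miR-16-5p among them, lie to the left of all 3.

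The weight of the choice can be read from the miRNAs that the study followed, miR-210-3p, a miRNA known to be induced under low oxygen, miR-193a-3p and miR-5100. Each was expressed relative to each measured reference in turn, as a relative PCR would do, from the raw signals. miR-210-3p stayed far above any reference. Its log2 difference was 5.09 ± 0.11 relative to miR-425-5p (SE over spots), 4.66 ± 0.049 relative to miR-423-5p and 3.45 ± 0.056 relative to miR-361-5p. In fold terms that ran from 34.1 down to 10.9.

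The study had listed all 3 among the miRNAs raised more than 2-fold on its exosome microarray before it chose them. Their height on these arrays is therefore no independent support. Under all 8 scalings miR-193a-3p and miR-5100 were at least 2-fold higher in hypoxia. Without normalization, the scaling with the fewest, 20 of the 180 miRNAs were. The log2 differences of miR-193a-3p and miR-5100 ran from 1.16 to 2.09 and from 1.40 to 2.33, respectively. The study also reported both as higher by quantitative PCR, where a spiked-in worm miRNA served for exosomes. Read against a single member of the list, their values depended on the reference. miR-193a-3p was 2.43-fold higher in hypoxia relative to miR-425-5p, with a log2 difference of 1.28 ± 0.11. Relative to miR-423-5p it was 1.81-fold higher, at 0.85 ± 0.067, and relative to miR-361-5p it was lower, at -0.36 ± 0.072. miR-5100 was 2.86-fold higher relative to miR-425-5p, at 1.52 ± 0.13, and 2.13-fold higher relative to miR-423-5p, at 1.09 ± 0.089. Relative to miR-361-5p it differed by -0.12 ± 0.093, little more than its SE over spots. Scaling to miR-361-5p takes its raw difference of 1.52 from every miRNA, so any miRNA with a smaller raw difference turns negative by construction.

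The mean of the 3 references, whose own raw log2 difference was 0.57, gave 4.40 ± 0.052 for miR-210-3p, 0.59 ± 0.069 for miR-193a-3p and 0.83 ± 0.090 for miR-5100, so that miR-210-3p alone stayed past 2-fold. Quantile normalization gave 5.30, 1.52 and 1.82 for the same miRNAs. The raw signals alone gave 20 of the 180 miRNAs at least 2-fold higher in hypoxia and 36 lower. From that base, scaling to miR-425-5p left 25 higher and 30 lower. Scaling to miR-423-5p left 13 higher and 55 lower, scaling to miR-361-5p left 2 higher and 148 lower, and scaling to the mean left 7 higher and 78 lower. Quantile normalization gave 33 and 18, and the 75th percentile of all miRNA probes gave 58 and 10.

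**Figure D4:**
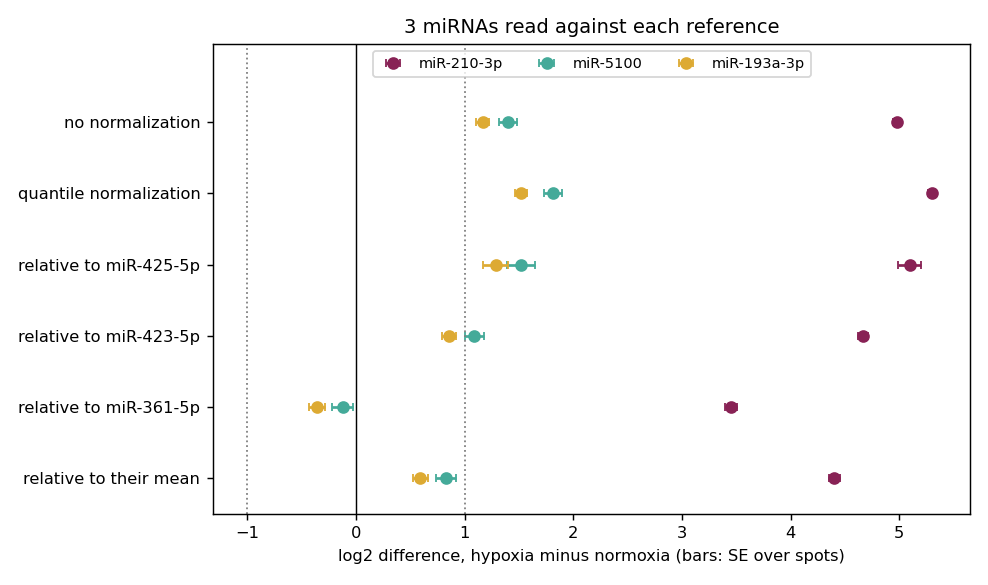
Log2 difference, hypoxia minus normoxia, of miR-210-3p, miR-5100 and miR-193a-3p without normalization, after quantile normalization, and relative to each measured reference miRNA or to the mean of the 3 (bars are SE over spots). The dotted lines mark 2-fold, miR-210-3p stays at 3.45 or more in every row, and the points of miR-193a-3p and miR-5100 fall below 0 in the row relative to miR-361-5p.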

How the data were processed

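Exosomal RNA of normoxic and hypoxic mouse BMSCs was read on 1 array per condition. The study names Agilent's miRNA labelling kit, whereas the labels describe reverse transcription from a DNA primer. Per the file headers, the authors extracted intensity with Feature Extraction 11.5.1.1, which subtracted background and set flags per spot. The deposited intensity values are linear and not normalized between arrays. The deposited value table equalled the processed signal (largest difference 0 over 58594 spots per array), so it gave no second normalization.

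Spots with any of 4 outlier flags were dropped (2.96% of miRNA spots in normoxia, 3.45% in hypoxia), and the rest were averaged per probe. The software put the median CV at 9.68% in normoxia and 15.8% in hypoxia and marked the hypoxia array for evaluation. On the normoxia array 225 miRNAs were detected, on the hypoxia array 199, and on both 180. Log2 differences were means over the probes detected on both arrays, with errors over spots, in Python 3.11.15 (lowess span 0.7) and limma 3.58.1 (normexp, offset 50). The number of arrays limits the precision, and no test was made. The scalings were also run on simulated data, but no outcome of that run is reported. It therefore lends no support to any of the scalings on these arrays. The members and lists were chosen with earlier results of these data known. Genes named were the members, the other arms of their hairpins, the 16 further references, the 3 miRNAs of the study, the 2 nearest in difference to each member and the 5 with the smallest largest difference over the scalings. The array design names mm9 and the gene table GRCm38.p6, so no coordinates are given.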

Additional observations from a re-analysis of the deposited data

How the results depend on the processing

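The order of the measured references, miR-425-5p lowest and miR-361-5p highest, held under all 8 scalings. It changed with the software's summed signal per miRNA, which put miR-425-5p at 0.52 and miR-423-5p at 0.48. The median log2 difference of the measured references was 0.70 under quantile normalization, 0.31 without normalization, 0.43 with the hybridization spike-ins and 1.24 with the 75th percentile of all miRNA probes, where 2 of them were 2-fold apart. With no filter on dim probes it was 0.44 over 6 members, but 3 of these then sit at the floor of both arrays and carry no measurement. With normexp background correction the 3 differed by 0.13, 0.51 and 1.51. Of 39 member values over 13 alternatives, 28 moved by less than the SD over spots, 11 moved further, and 1 changed sign, miR-425-5p without normalization. Scaling to a reference started from raw signals, which gave 20 miRNAs at least 2-fold higher and 36 lower, against 33 and 18 under quantile normalization. From the raw base, scaling to miR-425-5p gave 25 higher and 30 lower, scaling to miR-423-5p 13 and 55, scaling to miR-361-5p 2 and 148, and scaling to their mean 7 and 78. Relative to miR-361-5p, miR-193a-3p was at -0.36 and miR-5100 at -0.12, below 0 because the 1.52 of miR-361-5p exceeds their raw differences. Signal over background limits miR-191-5p, miR-423-3p and miR-186-5p, and miR-425-5p rests on 1 dim probe. No paired analysis was possible because there is a single array in each condition, which also left no replicate to omit.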
